A study of Mus musculus with 8 samples.

Results

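The genes described here make, salvage and dispose of the building blocks of RNA and DNA. They were chosen by name as a list of 31 genes of purine, pyrimidine and deoxynucleotide synthesis, and each gene was read from the brightest probe set whose annotation carries its symbol. Of the 31 genes, 30 were measured among 20178 genes tested: 12 of 13 purine genes and 18 of 18 pyrimidine and deoxynucleotide genes. Impdh2, which makes an IMP dehydrogenase, was not analysed here. Ctps1 was read from a probe set that carries its older symbol, Ctps.

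Cells build purines step by step on an activated ribose, phosphoribosyl pyrophosphate (PRPP), until they reach inosine monophosphate (IMP), from which AMP and GMP are made. Pyrimidines are made as a free ring first and joined to PRPP afterwards, which gives uridine monophosphate (UMP) and then cytidine nucleotides. Ribonucleotide reductase turns the ribonucleotides into deoxynucleotides for DNA, a separate route supplies thymidylate, and proliferating fibroblasts use both most heavily while they copy their DNA. Pyruvate kinase M, whose PKM1 and PKM2 isoforms come from a splice choice in the Pkm gene, catalyses a late step of glycolysis, the pathway that also feeds ribose and serine into nucleotides.

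RNA came from primary mouse embryonic fibroblasts, cells cultured from embryos, of 2 lines. Line B (MEF16) and line A (MEF10) were each sampled with tamoxifen, when the labels give PKM1 expression, and without tamoxifen, when they give PKM2 expression, with 2 samples in each of the 4 groups and 8 arrays in all. The labels name no allele, recombinase, promoter, dose, duration or vehicle, and give no origin for the 2 samples of each group. If both came from the same culture, the spread that the p-values rest on is technical. No group here received tamoxifen without the change of isoform, so an effect of the drug and an effect of the isoform cannot be told apart.

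Some label fields speak of mammary tumours, whereas the titles and most others give fibroblasts. The fibroblast marker list (10 genes) had a median log2 level of 10.29 to 10.83 over the 8 samples. The epithelial and mammary list (10 genes) lay at 6.65 to 6.82, the macrophage and blood list (9 genes) at 6.49 to 7.12 and the endothelial list (7 genes) at 6.59 to 6.74. The milk protein gene Csn2 lay at 5.63 to 5.80 and the epithelial adhesion gene Epcam at 5.89 to 6.09, near the dim end of the log2 scale, which has no true 0. Between samples with and without tamoxifen, the fibroblast marker Dcn rose (log2 fold change 0.88, SE 0.15, limma adjusted p = 0.021) and the endothelial marker Erg fell (-0.44, SE 0.07, adjusted p = 0.020). No other marker passed in either direction. Between the lines without tamoxifen, limma called 2 fibroblast markers and 1 endothelial marker higher in line B, against 0.183% of all genes. With tamoxifen it called 1 endothelial marker higher in line B, against 0.173%. The macrophage and blood list had medians of 0.29 without and 0.45 with tamoxifen, line B against line A, and 0 of 9 passed. The part of the markers in the results below was not tested.

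Pkm itself, on a probe set whose power to tell the isoforms apart was not tested, had log2 levels of 11.41 and 10.75 in line B with tamoxifen and 10.86 and 10.74 in line A with tamoxifen, against 10.82 and 11.21 in line B without it and 11.19 and 10.99 in line A without it. The groups overlapped, and the log2 fold change was -0.11 (SE 0.15, adjusted p = 0.880), so this value does not check the labels.

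Line B was the noisier line, and its replicates differed in a patterned way. The correlation of log2 values between replicates was 0.989 with and 0.991 without tamoxifen in line B, and 0.997 with and 0.996 without tamoxifen in line A. The median absolute difference between replicates over the 30 genes was 0.17 with and 0.17 without tamoxifen in line B, against 0.07 with and 0.13 without tamoxifen in line A. In line B, a gene that was higher in replicate 1 than in replicate 2 with tamoxifen tended to be lower in replicate 1 without tamoxifen. The difference had opposite signs for 25 of 30 genes (Pearson r = -0.80 across the 30 genes, which share the same 4 arrays) and for 62.2% of all 23410 named probe sets (r = -0.53). In line A the same correlation was -0.01 over the 30 genes and 0.03 over all named probe sets. The largest swings were in Cad, the enzyme that starts pyrimidine synthesis, which differed by 0.66 between replicates with tamoxifen and by -0.67 without, and in Atic, which carries out the last steps to IMP, at 0.69 with and -0.36 without. The numbers 1 and 2 only name the samples of a group, and the cause was not tested. The main line B values are therefore also given with its arrays left out in turn.

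**Figure D1:**
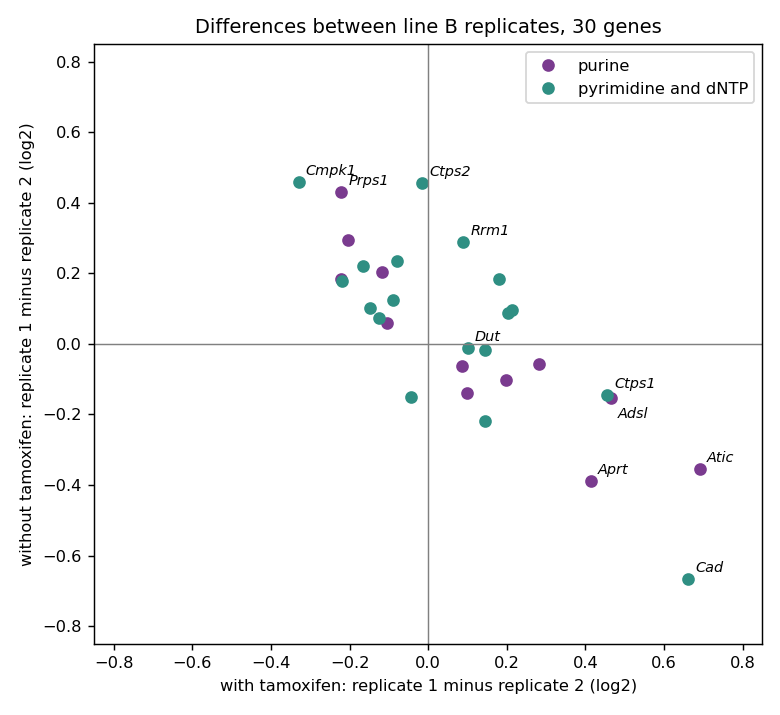
Replicate 1 minus replicate 2 in line B for the 30 genes, with tamoxifen on the horizontal axis and without it on the vertical axis (log2 units, purine and pyrimidine genes in different colours). Most points lie in the upper left and lower right fields, with Cad (0.66, -0.67) and Atic (0.69, -0.36) farthest out.

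Over both lines, most of these genes lay slightly lower with tamoxifen, and Dut, the dUTPase gene, was the single gene that passed the test. In limma's fit with terms for line and tamoxifen, 0 of 30 rose, against 0.843% of all genes tested, and 1 of 30 fell, against 0.506%. At an unadjusted p under 0.05 there were 11 of 30 (36.7%), against 1996 of all 20178 genes (9.89%). The log2 fold change was below 0 for 23 of 30 genes (76.7%), against 55.3% of all genes, and the median was -0.13, against -0.01 for all genes. The purine genes had a median of -0.11 with 10 of 12 below 0, and the pyrimidine and deoxynucleotide genes a median of -0.14 with 13 of 18 below 0. Without line B PKM1 replicate 2 the purine median was -0.05, with 10 of 12 still below 0. The pyrimidine and deoxynucleotide median was then -0.16, with 11 of 18 below 0. All 30 genes had a median of -0.08 in that fit, with 21 of 30 below 0. These counts describe a list that was chosen with earlier results of the data known. The RNA is from whole cultures, so fewer cells that express a gene and less of its RNA per cell cannot be told apart.

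**Figure D2:**
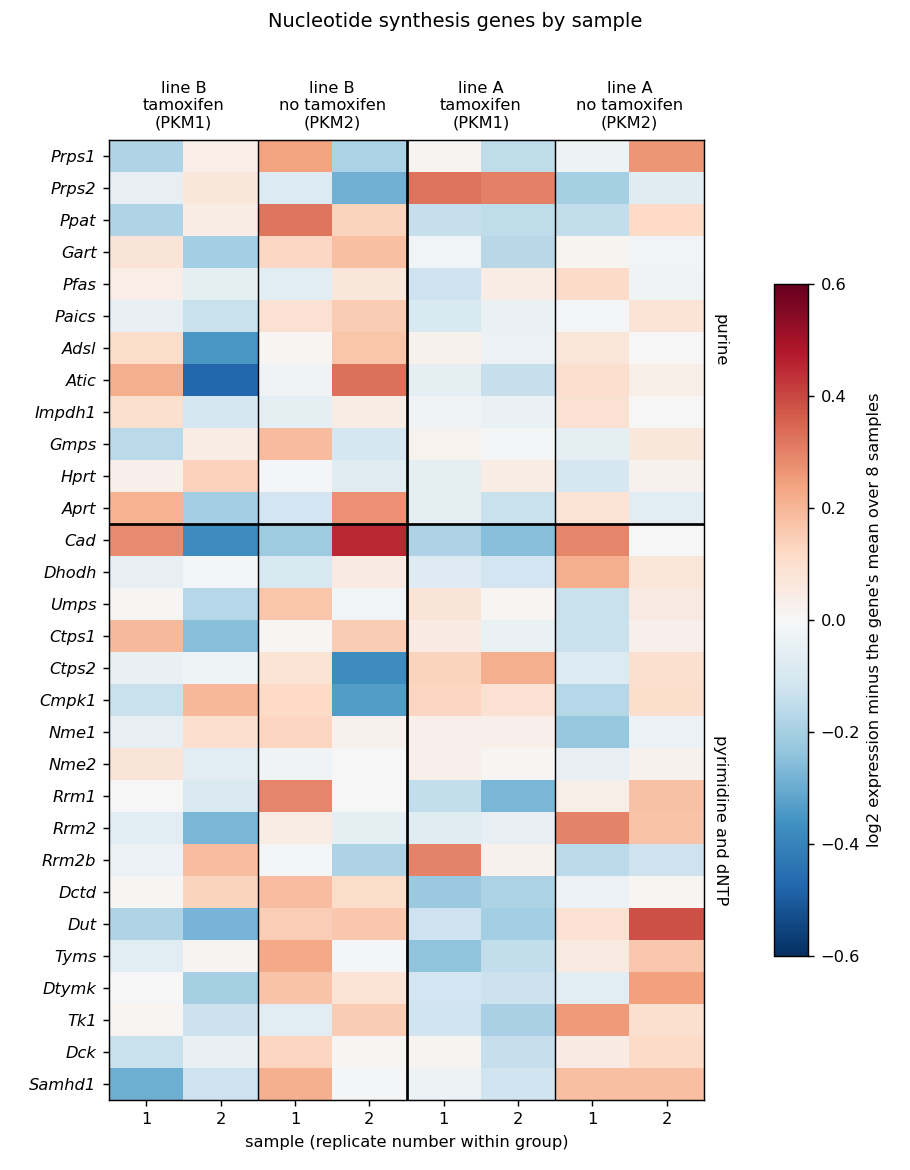
Log2 expression of each of the 30 genes minus its mean over the 8 samples, by sample and group, with purine genes above the thick line. In the rows from Rrm1 to Samhd1 the columns with tamoxifen are mostly bluer (lower) than those without, apart from Rrm2b, while Prps2 runs the other way and Cad and Atic alternate within line B.

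Genes whose samples with and without tamoxifen did not overlap at all were counted next. Prps2 alone lay higher in all 4 samples with tamoxifen, 1 of 30 against 2.61% of all genes. Dut, Samhd1, Rrm1 and Paics lay lower in all 4, 4 of 30 against 2.74%.

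The thymidylate route turns deoxyuridine nucleotides into the thymine nucleotide of DNA, and all 4 of its genes had log2 fold changes below 0 in both lines. Dut makes dUTPase, which breaks down dUTP so that uracil stays out of DNA and hands its product, dUMP, to thymidylate synthase. Dut had log2 levels of 8.26 and 8.16 in line B with tamoxifen and 8.31 and 8.23 in line A with tamoxifen, against 8.58 and 8.60 in line B without it and 8.53 and 8.82 in line A without it. Every sample with tamoxifen lay below every sample without, and the highest value, 8.82, came from line A without tamoxifen. Dut averaged 8.24 ± 0.06 with tamoxifen and 8.63 ± 0.13 without (SD, n = 4 each), a ratio of 0.761. It fell by 0.39 on the log2 scale (SE 0.08, 95% interval -0.56 to -0.22, limma adjusted p = 0.037). In each line alone the effect was about as large, -0.38 in line B (SE 0.11, adjusted p = 0.672) and -0.40 in line A (SE 0.11, adjusted p = 0.267), and neither passed. When an array was left out, the effect of Dut ranged from -0.43 to -0.33 in line B and from -0.55 to -0.26 in line A, where the smallest value came without line A PKM2 replicate 2.

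The Dut call lay close to the threshold. Its adjusted p was 0.073 without line B PKM1 replicate 2, 0.055 without line B PKM2 replicate 1, 0.094 without line B PKM2 replicate 2, 0.137 without line A PKM1 replicate 1, 0.187 without line A PKM1 replicate 2 and 0.142 without line A PKM2 replicate 2. It was 0.043 without line B PKM1 replicate 1 and 0.044 without line A PKM2 replicate 1. The log2 fold change stayed between -0.45 and -0.33 when any 1 array was left out.

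The sequence before the annotated start of Dut is shown because Dut carries the one call among these genes. RefSeq gives this start on the plus strand of GRCm38.p6, and the 250 bases before it, chr2:125247265-125247514, lie wholly inside the annotated Dut gene, which has an earlier start. Here and in the sequences that follow, capitals mark letters of an E2F motif, a CCAAT box or an E-box, and the Dut stretch holds none of them.
Dut: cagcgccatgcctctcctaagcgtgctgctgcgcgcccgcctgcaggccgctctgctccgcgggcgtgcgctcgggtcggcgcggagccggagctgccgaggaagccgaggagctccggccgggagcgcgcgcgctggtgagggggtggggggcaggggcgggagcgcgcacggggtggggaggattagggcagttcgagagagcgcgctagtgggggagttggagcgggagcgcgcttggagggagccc

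The remaining genes of this route had smaller log2 fold changes and did not pass. Tyms, which makes thymidylate synthase, the enzyme that methylates dUMP to dTMP, had a log2 fold change of -0.22 (SE 0.08, adjusted p = 0.315). Dtymk, the kinase that phosphorylates dTMP, was at -0.22 (SE 0.08, adjusted p = 0.363), and Dctd, the deaminase that makes dUMP from dCMP, at -0.13 (SE 0.07, adjusted p = 0.549). In Tyms the samples with tamoxifen lay at 8.67 and 8.75 in line B and 8.49 and 8.59 in line A, against 8.96 and 8.73 in line B and 8.79 and 8.90 in line A without it. A single sample without tamoxifen, at 8.73 in line B, lay inside the range of the treated samples.

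Ribonucleotide reductase pairs a large catalytic subunit, Rrm1, with a small subunit that is either Rrm2, made for DNA replication, or Rrm2b, a p53-induced form used outside S phase. The replicative pair had log2 fold changes below 0 and Rrm2b above 0, and none of the 3 passed. Rrm1 had log2 levels of 10.38 and 10.29 in line B with tamoxifen and 10.24 and 10.11 in line A with tamoxifen, against 10.67 and 10.39 in line B without it and 10.42 and 10.56 in line A without it. All 4 treated samples lay below all 4 untreated ones, but in line B the nearest pair, 10.38 and 10.39, almost touched. Its log2 fold change was -0.25 (SE 0.08, 95% interval -0.44 to -0.07, limma adjusted p = 0.266).

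Rrm2 had log2 levels of 10.61 and 10.40 in line B with tamoxifen and 10.60 and 10.63 in line A with tamoxifen, against 10.72 and 10.62 in line B without it and 10.98 and 10.85 in line A without it. In line A the 2 conditions were far apart, and overall the groups overlapped by a hair, at 10.63 with and 10.62 without tamoxifen. The log2 fold change was -0.23 (SE 0.07, 95% interval -0.39 to -0.06, adjusted p = 0.263). Rrm2b had 8.72 and 8.94 in line B with tamoxifen and 9.05 and 8.78 in line A with tamoxifen, against 8.74 and 8.57 in line B without it and 8.59 and 8.62 in line A without it. A treated line B sample at 8.72 lay under an untreated one at 8.74, and otherwise the treated samples were higher. The log2 fold change of Rrm2b was 0.24 (SE 0.09, adjusted p = 0.338).

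The stretches before the starts of Rrm1 and Rrm2 are shown because these subunits work as a pair and because both hold an E2F core and a CCAAT box. This core was searched after the longer E2F motif, which was in 0 of 16 genes of this branch with a window. The core was in 5 of these 16 and a CCAAT box in 5 of 16. Of protein-coding genes, 13.7% hold this core and 42.3% a CCAAT box, in windows that also cover 50 bases past the start. RefSeq places the 250 bases before the start of Rrm1 at chr7:102441445-102441694 and those of Rrm2 at chr12:24708004-24708253, both on the plus strand of GRCm38.p6.
Rrm1: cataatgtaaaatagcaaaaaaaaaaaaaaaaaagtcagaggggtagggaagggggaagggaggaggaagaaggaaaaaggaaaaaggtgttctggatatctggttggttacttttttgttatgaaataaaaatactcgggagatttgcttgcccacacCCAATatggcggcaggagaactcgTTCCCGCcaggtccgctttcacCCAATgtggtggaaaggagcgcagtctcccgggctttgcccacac
Rrm2: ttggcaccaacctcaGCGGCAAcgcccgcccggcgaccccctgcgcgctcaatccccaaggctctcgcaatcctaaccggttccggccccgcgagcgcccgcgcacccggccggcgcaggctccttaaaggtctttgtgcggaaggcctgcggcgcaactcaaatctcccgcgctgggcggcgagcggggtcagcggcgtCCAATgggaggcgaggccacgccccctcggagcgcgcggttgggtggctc
In Rrm1 the E2F core letters begin at position -67, counted from the annotated start, between 2 CCAAT boxes, and in Rrm2 they begin at position -235, on the opposite strand, with a CCAAT box at -50.

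Samhd1 stands at the other end of the pool: it is a hydrolase that breaks deoxynucleotide triphosphates down. Samhd1 had log2 levels of 10.78 and 10.95 in line B with tamoxifen and 11.04 and 10.96 in line A with tamoxifen, against 11.29 and 11.06 in line B without it and 11.25 and 11.26 in line A without it. All treated samples lay below all untreated ones, with the closest pair at 11.04 and 11.06. Its log2 fold change was -0.28 (SE 0.07, 95% interval -0.45 to -0.12, adjusted p = 0.129), which did not pass. The 250 bases before its start, on the minus strand at chr2:157135097-157135346 in GRCm38.p6, hold none of the motifs and are shown beside those of the reductase subunits.
Samhd1: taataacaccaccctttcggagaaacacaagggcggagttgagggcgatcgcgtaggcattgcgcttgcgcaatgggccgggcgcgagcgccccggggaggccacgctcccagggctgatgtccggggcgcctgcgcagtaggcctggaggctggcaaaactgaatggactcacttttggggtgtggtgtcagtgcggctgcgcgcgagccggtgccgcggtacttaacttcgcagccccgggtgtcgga

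Salvage kinases recover deoxynucleosides. Tk1, the thymidine kinase of dividing cells, has 2 probe sets. The brighter had log2 levels of 8.70 and 8.56 in line B with tamoxifen and 8.57 and 8.49 in line A with tamoxifen, against 8.62 and 8.84 in line B without it and 8.94 and 8.78 in line A without it. The groups overlapped through line B, and its log2 fold change was -0.22 (SE 0.08, adjusted p = 0.383). The dimmer probe set had 7.98 and 7.65 in line B with tamoxifen and 7.67 and 7.71 in line A with tamoxifen. Without it the values were 7.99 and 8.34 in line B and 8.30 and 8.19 in line A. All treated samples lay below all untreated ones there, but the nearest pair in line B, 7.98 and 7.99, almost touched. Its log2 fold change was -0.45 (SE 0.10, limma adjusted p = 0.082 over every named probe set). The effects of the probe sets thus differ in size, and neither passed. Dck, which phosphorylates deoxycytidine and purine deoxynucleosides, was at -0.15 (SE 0.07, adjusted p = 0.511).

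**Figure D3:**
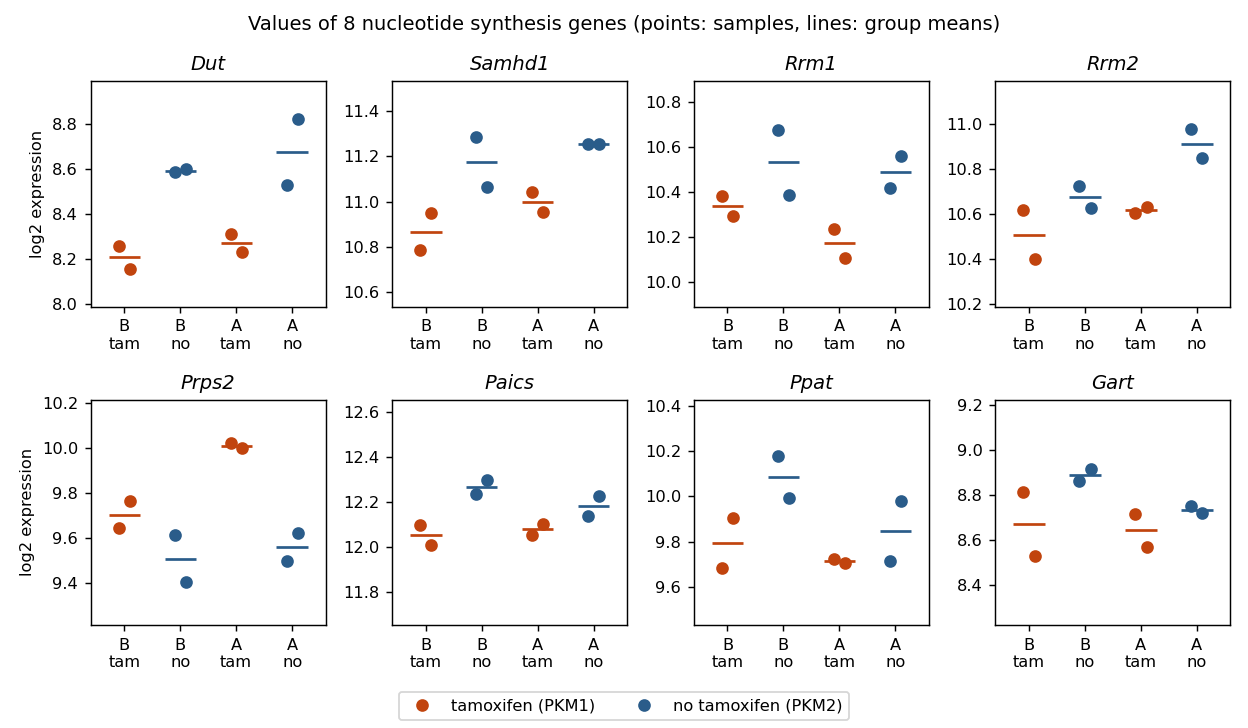
Log2 expression of 8 genes in each sample (points) with group means (lines), by line, with tamoxifen (tam) and without (no); every panel spans 1 log2 unit. Dut, Samhd1, Rrm1 and Paics lie lower in all samples with tamoxifen, and Prps2 lies higher in all of them, most in line A.

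Upstream in the pyrimidine branch no gene passed, and the replicates of Cad were widely spread. Of the 3 genes that make UMP, Cad had the largest log2 fold change, -0.27, with an SE of 0.17 (adjusted p = 0.691). Cad had log2 levels of 8.32 and 7.66 in line B with tamoxifen and 7.86 and 7.78 in line A with tamoxifen, against 7.83 and 8.49 in line B without it and 8.33 and 8.04 in line A without it. The line B replicates of either condition lay farther apart than the group means, and its log2 fold change ranged from -0.42 to -0.16 when an array was left out. Dhodh, the mitochondrial dehydrogenase of the pathway, was at -0.12 (SE 0.08) and Umps, which finishes UMP, at -0.04 (SE 0.09).

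The CTP synthases lay on either side of 0, Ctps1 at -0.02 (SE 0.10) and Ctps2 at 0.14 (SE 0.10). The nucleotide kinases Cmpk1, Nme1 and Nme2, which raise monophosphates and diphosphates to the next step, had log2 fold changes of 0.14 (SE 0.11), 0.06 (SE 0.08) and 0.02 (SE 0.06), and 0 of 3 passed. The probe set of Nme2 also carries the symbol Dscaml1, and its other probe set gave -0.06 (SE 0.15). Nme1 and Nme2 are close paralogues, and whether their probes tell them apart was not tested.

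In the purine branch, Prps2 was the member with the smallest p and it lay higher with tamoxifen. Prps1 and Prps2 make PRPP synthetase, which supplies the activated ribose for both branches. Prps2 had log2 levels of 9.64 and 9.76 in line B with tamoxifen and 10.02 and 10.00 in line A with tamoxifen, against 9.61 and 9.41 in line B without it and 9.50 and 9.62 in line A without it. No treated sample overlapped the untreated ones, but line B's lowest treated value, 9.64, was close to line A's highest untreated value, 9.62. The log2 fold change was 0.32 (SE 0.08, 95% interval 0.14 to 0.50, adjusted p = 0.115), a ratio of 1.25, and it did not pass. When any 1 array was left out, the log2 fold change of Prps2 ranged from 0.27 to 0.39, with the largest value without line B PKM2 replicate 1. Prps1 was at -0.14 (SE 0.11, adjusted p = 0.767), the other way from its paralogue. The 250 bases before the start of Prps2, on the minus strand at chrX:167382750-167382999 in GRCm38.p6, are shown because Prps2 is the member that lay highest above 0; an E2F motif begins 33 bases past the start, outside this stretch.
Prps2: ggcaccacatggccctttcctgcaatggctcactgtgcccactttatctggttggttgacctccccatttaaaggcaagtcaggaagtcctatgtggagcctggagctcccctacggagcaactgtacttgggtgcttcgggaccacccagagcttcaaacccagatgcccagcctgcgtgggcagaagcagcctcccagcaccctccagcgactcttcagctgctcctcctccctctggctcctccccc

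The 6 genes that build IMP from PRPP all had log2 fold changes below 0 in line B, in line A and over both, with a median of -0.16 over both, and 0 of 6 passed. Without line B PKM1 replicate 2 the median over both was -0.08, with 6 of 6 still below 0, and in line B alone 3 of 6 were below 0. In line A, 5 of 6 were below 0 without PKM2 replicate 1 and 5 of 6 without PKM2 replicate 2. Ppat, the amidotransferase that commits PRPP to purines, had log2 levels of 9.68 and 9.90 in line B with tamoxifen and 9.72 and 9.71 in line A with tamoxifen, against 10.18 and 9.99 in line B without it and 9.71 and 9.98 in line A without it. The groups separated in line B and overlapped in line A, and the log2 fold change over both was -0.21 (SE 0.09, adjusted p = 0.437).

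Paics, which carries out 2 middle steps of the pathway, had log2 levels of 12.10 and 12.01 in line B with tamoxifen and 12.05 and 12.10 in line A with tamoxifen, against 12.24 and 12.30 in line B without it and 12.13 and 12.23 in line A without it. Every treated sample lay below every untreated one, by little in line A. The log2 fold change was -0.16 (SE 0.06, 95% interval -0.30 to -0.02, adjusted p = 0.429). Ppat and Paics are neighbours, with annotated starts 276 bases apart on opposite strands of chromosome 5. The 250 bases before either start lie inside the other annotated gene, so the annotated genes overlap. Gart, a trifunctional enzyme of the same pathway, had 8.81 and 8.53 in line B with tamoxifen and 8.72 and 8.57 in line A with tamoxifen, against 8.86 and 8.92 in line B without it and 8.75 and 8.72 in line A without it. The groups of Gart overlapped only at the top of the treated range, and its log2 fold change was -0.15 (SE 0.08, adjusted p = 0.587). Without line B PKM1 replicate 2, Gart was at -0.09.

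Atic, Adsl and Pfas, the other genes of this pathway, were at -0.22 (SE 0.14), -0.12 (SE 0.10) and -0.05 (SE 0.07). Atic depended on single line B arrays more than the others: its log2 fold change ranged from -0.35 to -0.07 when an array was left out. After IMP, the dehydrogenase gene Impdh1 (-0.04, SE 0.07) and Gmps, which makes GMP (-0.05, SE 0.08), stayed near 0. The base salvage genes Hprt and Aprt, which recycle hypoxanthine, guanine and adenine, were at 0.08 (SE 0.07) and -0.09 (SE 0.11).

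**Figure D4:**
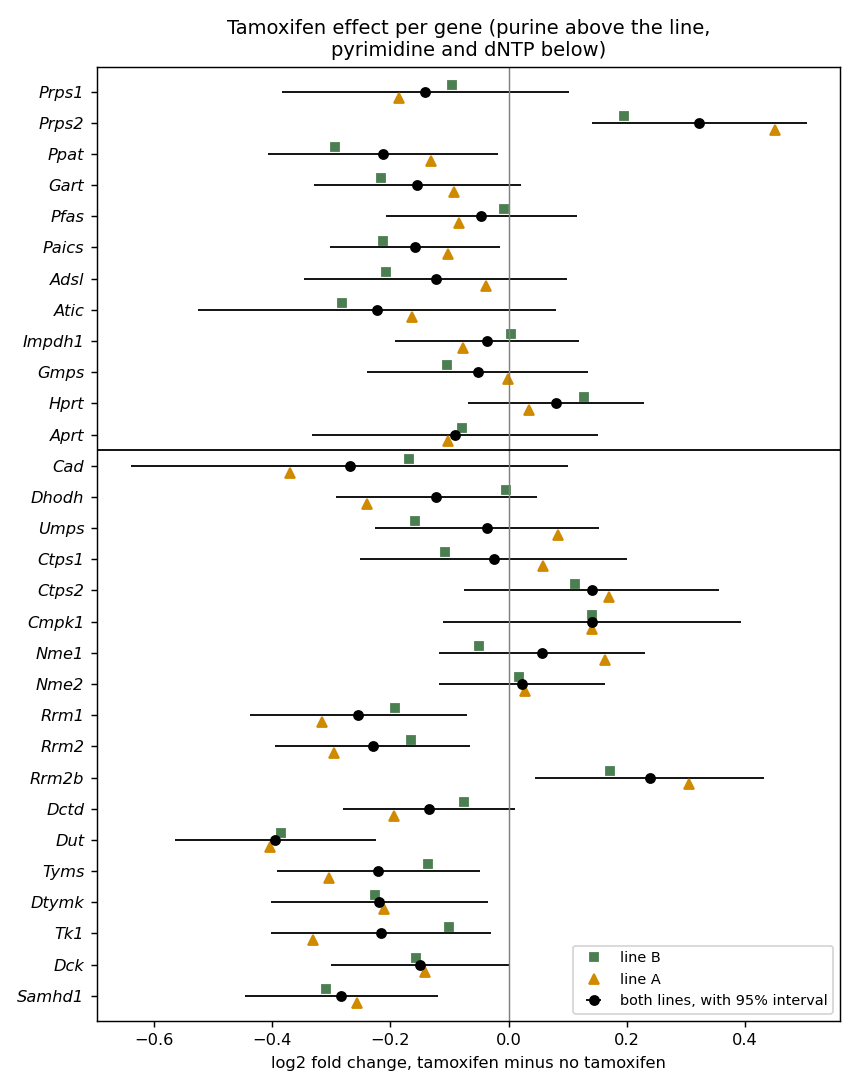
Log2 fold change with tamoxifen over without for each of the 30 genes: both lines with 95% interval (black), line B (squares) and line A (triangles). Dut lies farthest to the left (-0.39) and Prps2 farthest to the right (0.32), and intervals are not adjusted for the number of genes.

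Within line A, 0 of 30 genes rose and 0 of 30 fell in limma's fit of the 4 group means, against 0.401% and 0.0991% of all genes, and 9 of 30 had an unadjusted p under 0.05, against 8.13% of all genes. These 9 were Prps2, Dhodh, Rrm1, Rrm2, Rrm2b, Dut, Tyms, Tk1 and Samhd1. Prps2 had the largest effect of either sign in line A, 0.45 (SE 0.11, adjusted p = 0.151). The pyrimidine and deoxynucleotide genes had a median of -0.20 in line A, with 11 of 18 below 0 (61.1%, against 55.4% of all genes). The purine genes had a median of -0.09 there, with 10 of 12 below 0, and one of -0.05 without line A PKM2 replicate 1.

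Within line B, 0 of 30 rose and 0 of 30 fell, against 0.0198% and 0% of all genes, and 4 of 30 had an unadjusted p under 0.05, against 4.81% of all genes. These were Dut (-0.38, SE 0.11), Samhd1 (-0.31, SE 0.11), Ppat (-0.29, SE 0.13) and Paics (-0.21, SE 0.09). When a line B array was left out, Samhd1 ranged from -0.42 to -0.20, with the smallest effect without PKM2 replicate 1. Ppat ranged from -0.41 to -0.18, with the smallest effect without PKM1 replicate 1, and Paics from -0.26 to -0.17. The pyrimidine and deoxynucleotide median was -0.12 in line B, with 14 of 18 below 0 (77.8%, against 51.7% of all genes). It was -0.06 without line B PKM1 replicate 2 and -0.07 without line B PKM2 replicate 1, with 13 of 18 below 0 each time. The purine median was -0.10 in line B, with 9 of 12 below 0, and without line B PKM1 replicate 2 it was 0.03, with 5 of 12 below 0. The direction of the purine genes in line B thus rested on that array.

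The effects in line B and line A were not shown to differ for any gene. In the test of line B's effect minus line A's, 0 of 30 were higher and 0 lower, against 0% and 0% of all genes, and 0 of 30 had an unadjusted p under 0.05, against 2.77% of all genes. For Dut the difference was 0.02 with a 95% interval of -0.35 to 0.39, and for Prps2 it was -0.26 with an interval of -0.60 to 0.08. Differences of the size of the effects themselves lie inside these intervals.

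None of the 30 genes was shown to differ between line B and line A themselves. Without tamoxifen, line B against line A, limma called 0 of 30 higher and 0 lower, against 0.183% and 0.139% of all genes, and 0 of 30 had an unadjusted p under 0.05, against 5.13%. Rrm2 came nearest, at -0.24 (SE 0.11, 95% interval -0.48 to 0.00, adjusted p = 0.989). With tamoxifen, line B against line A, 0 of 30 were higher and 0 lower, against 0.173% and 0.347%, and 2 of 30 had an unadjusted p under 0.05, against 6.67%. Those were Dctd at 0.28 (SE 0.09, adjusted p = 0.474) and Prps2 at -0.31 (SE 0.11, adjusted p = 0.513). These comparisons use the same arrays as the effects of tamoxifen.

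Genes that surround nucleotide synthesis were read from fixed lists in the same fit over both lines. Of 24 measured genes of purine interconversion, salvage and breakdown, 1 rose and 0 fell, against 0.843% and 0.506% of all genes tested. The list median was 0.03. The one that rose was Gda, guanine deaminase, which takes guanine out of the salvage pool as xanthine. Gda had log2 levels of 8.13 and 8.33 in line B with tamoxifen and 8.87 and 8.90 in line A with tamoxifen, against 7.59 and 7.60 in line B without it and 7.89 and 7.90 in line A without it. Gda was higher with tamoxifen in both lines and rose by 0.82 on the log2 scale (SE 0.09, adjusted p = 0.002), a larger value than that of any of the 30 synthesis genes. Ak5, an adenylate kinase, and Nt5e, a nucleotidase of the cell surface, were at -0.33 (SE 0.07, adjusted p = 0.053) and -0.26 (SE 0.07, adjusted p = 0.126) and did not pass.

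Of 16 genes of pyrimidine salvage and breakdown, 10 of mitochondrial deoxynucleotide supply and 7 nucleoside transporters, 0 passed in limma. At an unadjusted p under 0.05 there were 4, 2 and 1, against 9.89% of all genes tested. The list medians were 0.00, 0.10 and 0.01. Dpyd, which starts uracil and thymine breakdown, was at 0.35 (SE 0.08, adjusted p = 0.087), and the transporter gene Slc29a1 at -0.30 (SE 0.11, adjusted p = 0.327). In the mitochondrial list, the polymerase gene Polg was at -0.21 (SE 0.07), and the mitochondrial deoxynucleoside kinase genes Tk2 and Dguok at 0.16 (SE 0.07) and 0.20 (SE 0.09).

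The folate and serine genes supply the carbons that Gart, Atic and Tyms use. Of 10 measured, 0 rose, 2 fell and 9 were below 0, against 0.843%, 0.506% and 55.3% of all genes tested. The list median was -0.33. Within line A 0 of 10 passed, and within line B 0 of 10. Mthfd2, a mitochondrial folate enzyme, fell by 0.43 (SE 0.07, adjusted p = 0.021), and had 10.49 and 10.23 in line B with tamoxifen and 10.18 and 10.20 in line A with tamoxifen, against 10.76 and 10.88 in line B without it and 10.55 and 10.63 in line A without it. All treated samples of Mthfd2 lay below all untreated ones. Aldh1l2, the mitochondrial enzyme that oxidises formyl folate, fell by 0.65 (SE 0.12, adjusted p = 0.029), and Psat1, of serine synthesis, was at -0.36 (SE 0.09, adjusted p = 0.105).

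Genes of DNA replication and of mitosis lay lower in the same samples as the deoxynucleotide genes. Of 23 S phase genes, 0 rose, 4 fell and 23 were below 0, with a median of -0.30. Among all genes tested, 0.843% rose, 0.506% fell and 55.3% were below 0. Pole, Uhrf1 and Mcm6, which copy DNA, maintain its methylation and unwind it, fell by 0.49 (SE 0.08), 0.50 (SE 0.09) and 0.45 (SE 0.08). Of 14 mitosis genes, 0 rose and 8 fell, among them Ect2 at -0.61 (SE 0.07), Mki67 at -0.70 (SE 0.09) and Kif23 at -0.57 (SE 0.08), with a median of -0.50. Within line A, limma called 5 of 14 mitosis and 1 of 23 S phase genes lower, against 0.0991% of all genes. Within line B it called 0 of 14 and 0 of 23 lower, against 0%. The mitosis medians were -0.39 in line B and -0.60 in line A. The median deviation of the S phase genes from their own means was -0.06 and -0.09 in line B with tamoxifen and -0.18 and -0.21 in line A with tamoxifen, against 0.15 and 0.11 in line B without it and 0.11 and 0.15 in line A without it. The same quantity for the 18 pyrimidine and deoxynucleotide genes was -0.04 and -0.08 in line B with tamoxifen and -0.05 and -0.12 in line A with tamoxifen, against 0.12 and 0.01 in line B without it and 0.00 and 0.10 in line A without it. Both sets lay lower in all samples with tamoxifen. The part of proliferation in the values of Dut, Rrm1, Rrm2, Tyms and Tk1 was not tested.

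**Figure D5:**
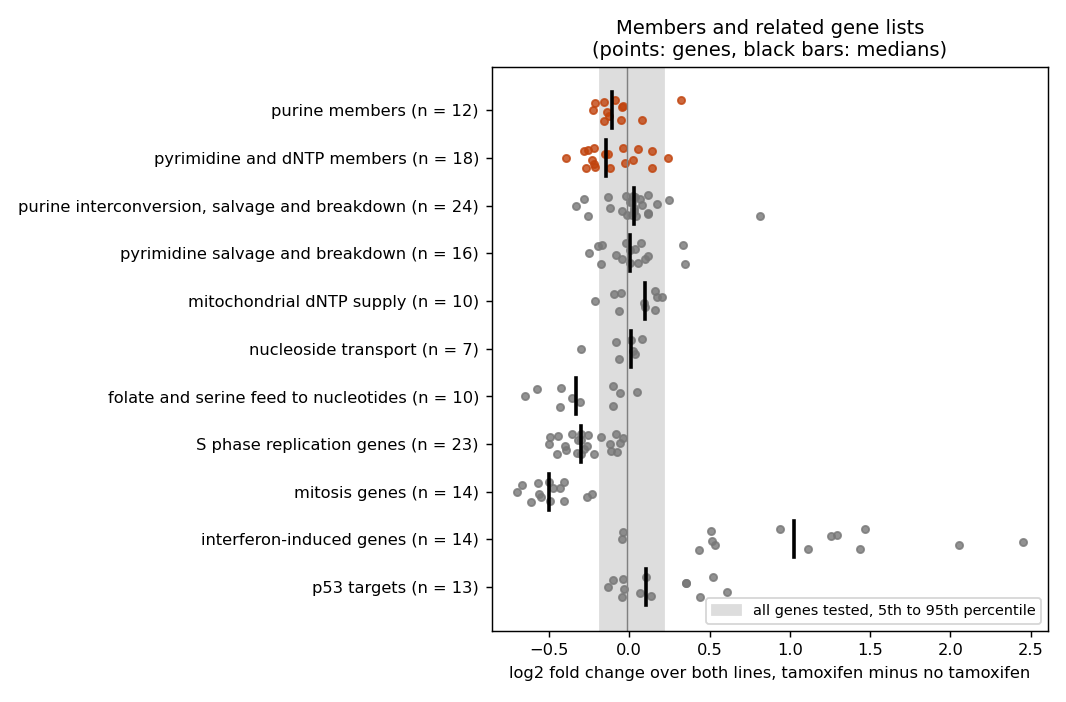
Log2 fold change over both lines for each gene (points) of the 2 branches and of 9 related lists, with list medians (black bars) and the range from the 5th to the 95th percentile of all genes tested (grey). Mitosis (median -0.50), folate and serine (-0.33) and S phase genes (-0.30) lie to the left, interferon-induced genes (1.03) to the right, and the nucleotide branches (-0.11 and -0.14) between them and 0.

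Promoter letters were compared because genes for DNA precursors are often E2F targets and lay lower together with S phase genes. RefSeq windows of 250 bases before to 50 after the start were at hand for 27 of the 30 genes, with 35 windows in all, and a gene counted if any of its windows held the letters on either strand. The longer E2F motif (TTTCCCGC, TTTCGCGC, TTTGCCGC or TTTGGCGC) was in 0 of 16 pyrimidine and deoxynucleotide genes and in 2 of 11 purine genes, Prps2 and Ppat, against 3.29% of protein-coding genes. The core, the same 4 motifs without their first T, was searched after the longer form; it was in 5 of 16, namely Cad, Ctps1, Rrm1, Rrm2 and Dtymk, and in 4 of 11 purine genes, against 13.7%. CCAAT was in 5 of 16 and 4 of 11, against 42.3%, and the E-box CACGTG in 3 of 16 and 2 of 11, against 8.91%. A match is a description of these letters and not a bound site. The windows of Dut and Samhd1, the members with the lowest log2 fold changes on their brightest probe sets, held none of the motifs. The 250 bases before the Dut start lie inside the Dut gene, and the sequence before the earlier start of Dut was not searched. Those before the Ppat start, which hold its longer E2F motifs, lie inside the Paics gene. Control by E2F was not tested.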

How the data were processed

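The deposited table holds 1 log2 value per probe set and sample for 35556 probe sets on 8 Affymetrix arrays, made by the authors by RMA in Affymetrix Expression Console, per the labels. RMA quantile-normalizes arrays and compresses differences of dim probe sets. The log2 values were used as deposited. The platform annotation gave 1 symbol for 21789 probe sets, several for 1621 and none here for 12146. A gene was read from its brightest probe set over the 8 samples.

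The effect of tamoxifen over both lines came from limma 3.58.1 in R 4.3.3 (lmFit, eBayes) with line and tamoxifen as terms (5 residual degrees of freedom), and the other 5 tests from the 4 group means (4 degrees of freedom). P-values were adjusted (Benjamini-Hochberg) over 20178 genes, with a threshold of 0.05. The code was tested on simulated data with 200 changed genes. The number of arrays limits the precision.

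The members, the 9 pathway lists and the 4 marker lists were chosen with earlier results of these data known. Values in every sample were set to be printed for members that passed and for the 4 with the smallest p in each branch, and up to 3 genes with the smallest p of each pathway list were named. Others (Tyms, Tk1, Rrm2b, Cad) were chosen after their values were seen. Promoter windows and gene names came from RefSeq (GRCm38.p6). Alternatives were a common median, quantile normalization again, no dim genes, trend and robust eBayes, array weights, other probe set rules, other ways to treat the line, and leaving out each array.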

Additional observations from a re-analysis of the deposited data

How the results depend on the processing

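Dut over both lines, the single call, stayed below 0 in 8 fits without an array. Most of the 10 other settings leave its value at -0.39, because they change only the spread, the model terms or the genes tested. Such settings could not turn its direction. The effect of Dut was -0.39 with the common median, -0.40 with quantile normalization again and -0.47 with array weights. Directions of genes that were not called did turn: in line B, the effect of Cad ranged from -0.50 to 0.17 and that of Atic from -0.63 to 0.06 when an array was left out. Over both lines 1 of 30 genes passed; the number was 0 with arrays shifted to the same median, 0 with trend and robust eBayes, 0 with the mean of the within-line effects, and 6 with array weights (1 higher, 5 lower: Prps2, and Dut, Samhd1, Rrm1, Tyms and Dtymk). Leaving out each array gave 0 to 1. In line A, where 0 passed, 1 passed with array weights and 1 when only that line's samples were fitted, Prps2 both times. The other 4 comparisons gave 0 under every setting tried. Dut had a limma adjusted p of 0.052 with the common median, 0.051 with trend and robust eBayes and 0.066 with the mean of the within-line effects. It was 0.0497 with no term for the line, which passed, and 0.002 with array weights. The cause of these differences was not tested. Over all genes tested, the number of calls over both lines was 272, against 1040 with array weights, 142 with no term for the line and 66 to 358 when each array was left out, where fewer samples enter the fit. In line A it was 101, against 542 with array weights, 550 with only its own samples and 180 with every named probe set on its own; leaving out any 1 line A array gave 0 to 6. In line B it was 4, against 1 with array weights, 2 with only its own samples, and 0 to 7 when an array was left out. Between the lines without tamoxifen it was 65, and 4 to 80 when an array was left out. With tamoxifen it was 105, against 191 with every named probe set on its own, and 0 to 96 when an array was left out. No paired analysis was possible because the labels number the 8 samples in 1 run and groups share no replicate number.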

Other observations

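Beside the nucleotide genes, 10 of 14 interferon-induced genes rose over both lines (limma, median 1.03), against 0.843% of all genes tested. They were led by Ifit1 at 2.45 (SE 0.14), Rtp4 at 1.47 (SE 0.11) and Usp18 at 1.26 (SE 0.09). In human cells Samhd1 is known as an interferon-induced restriction factor, and here it was at -0.28 (SE 0.07, adjusted p = 0.129), lower in 4 of 4 samples with tamoxifen. Cmpk2, a mitochondrial nucleotide kinase gene that interferon induces, was at 0.17 (SE 0.08, adjusted p = 0.534). Of 13 p53 targets, 3 rose over both lines, against 0.843% of all genes tested, and 5 were below 0, with a list median of 0.10. Those that rose were Perp at 0.52 (SE 0.07), Mdm2 at 0.35 (SE 0.06) and Fas at 0.61 (SE 0.12). Within each line 0 of 13 passed, with a list median of 0.14 in line B and 0.03 in line A. Rrm2b, the ribonucleotide reductase subunit that p53 induces, was at 0.24 (SE 0.09, adjusted p = 0.338).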
